A study of Rattus norvegicus with 22 samples.

Results

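The adrenergic, glucagon, vasopressin and thyroid hormone receptors of rat liver were followed across ozone inhalation and hepatic vagotomy, the surgical cutting of the vagal branch to the liver. The set consisted of 6 genes chosen by symbol, Adra1b, Adra1a, Gcgr, Avpr1a, Thrb and Thra, of the 14971 genes listed in the deposited table. Of these 6, 5 had a row under their symbol and all 5 passed the minimum mean normalised count of 10 over the libraries, as did 12424 genes in all. Adra1a had no row under its symbol and was not analysed here.

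The study sequenced liver RNA of 22 rats, each a separate sample per the labels, in 4 groups: hepatic vagotomy with ozone (n = 5), hepatic vagotomy with air (n = 6), sham surgery with ozone (n = 6) and sham surgery with air (n = 5). All rats had surgery at 12 weeks of age, recovered for 5 to 6 days, breathed ozone at 1.0 ppm or air for 4 hours on 1 or 2 days, and were necropsied within 2 hours of the exposure. Every rat, the air and sham groups included, had therefore been through surgery and an exposure session. Strain and sex are not given in the sources used here, nor is it given which rats had 1 or 2 days of exposure, so that days and groups may be unevenly matched. The comparisons address how the liver transcriptome responds to ozone and whether the hepatic vagus takes part.

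Liver cells read stress and feeding signals through these receptors. The alpha-1 adrenergic receptor, bound by noradrenaline and adrenaline, and the V1a vasopressin receptor act through Gq and phospholipase C, which release calcium from stores through inositol trisphosphate and start glycogen breakdown. The glucagon receptor acts through Gs, cAMP and protein kinase A, and drives glucose production in fasting. Thyroid hormone receptors sit on DNA with a retinoid X receptor partner, hold corepressors without hormone and recruit coactivators with it; the beta receptor is known as the main one of hepatocytes.

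Libraries held 14098863 to 21141337 reads assigned to genes, and no member had fewer than 220 reads in any library. The 10 hepatocyte markers looked up were all in the table, with summed normalised counts of 2024281 to 2819399 per library, and no marker gene in the table was at 0 throughout a group. Because a piece of liver holds many cell types, fewer cells of a type and less RNA per cell cannot be told apart in any result given here. Levels are normalised read counts, not divided by transcript length, so levels are compared between libraries and not between genes. Changes are differences of log2(normalised count + 1) from limma with their standard errors, p-values were adjusted over all 12424 genes, and genes with an adjusted value under 0.05 are named as called. A group of 4 libraries stood apart by a low level of 5.8S ribosomal RNA, with 38.1 to 179.5 normalised counts, while the other 18 held at least 342: vagotomised ozone library 1, vagotomised air libraries 1 and 5, and sham ozone library 3. Results are therefore also given without them.

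Thrb and Adra1b fell and Thra rose after ozone in both surgery groups, and Gcgr fell in the vagotomised rats. In vagotomised rats 4 of the 5 members tested were called, against 21.1% of all genes tested. Of these, 3 were called lower and 1 higher, while 9.63% of all genes were called lower and 11.4% higher. In sham rats 3 of the 5 were called, against 28.4% of all genes tested. There, 2 were called lower and 1 higher, while 13.8% of all genes were called lower and 14.6% higher. When libraries were rescaled to equal totals, the split over all genes in sham rats moved to 1200 higher of 3540 called, against 1809 of 3526 with the deposited scaling. The member counts stayed at 4 in vagotomised and 3 in sham rats with that rescaling.

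**Figure D1:**
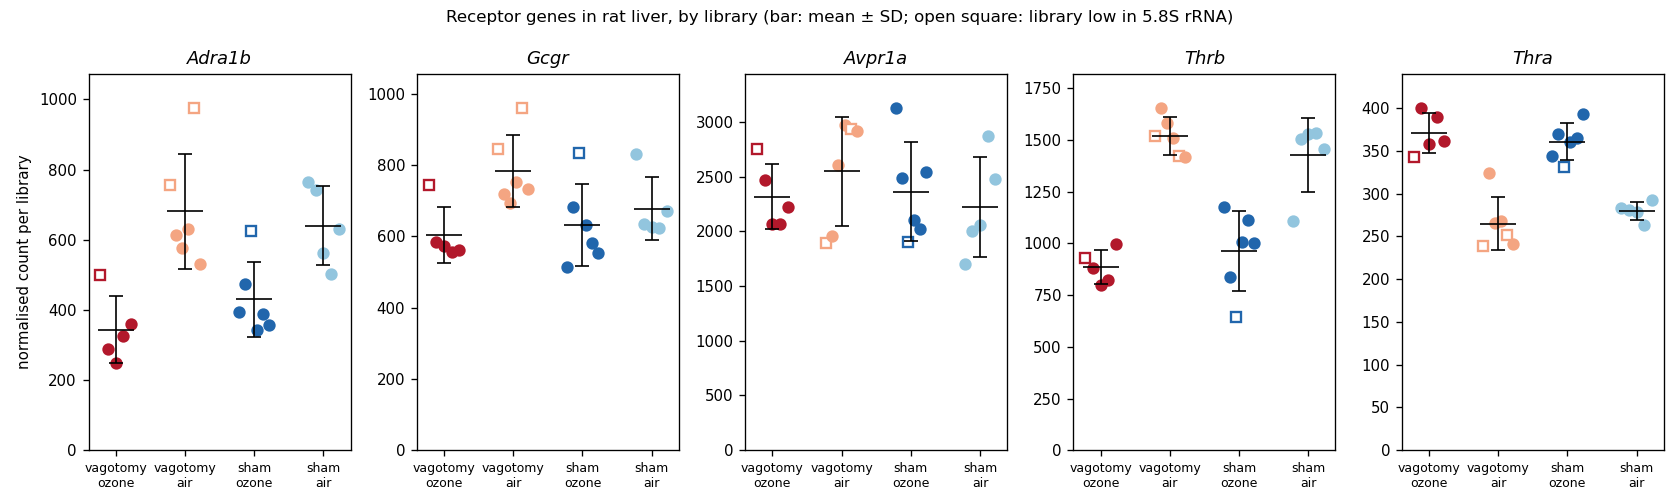
Normalised read counts (vertical axis, starting at 0) of the 5 receptor genes in each of the 22 libraries, by group, with the group mean as a line; open squares are the 4 libraries low in 5.8S ribosomal RNA. Thrb lies between 797 and 997 in the vagotomised ozone libraries and between 1415 and 1655 in the vagotomised air libraries, while Avpr1a overlaps in all groups.

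**Figure D2:**
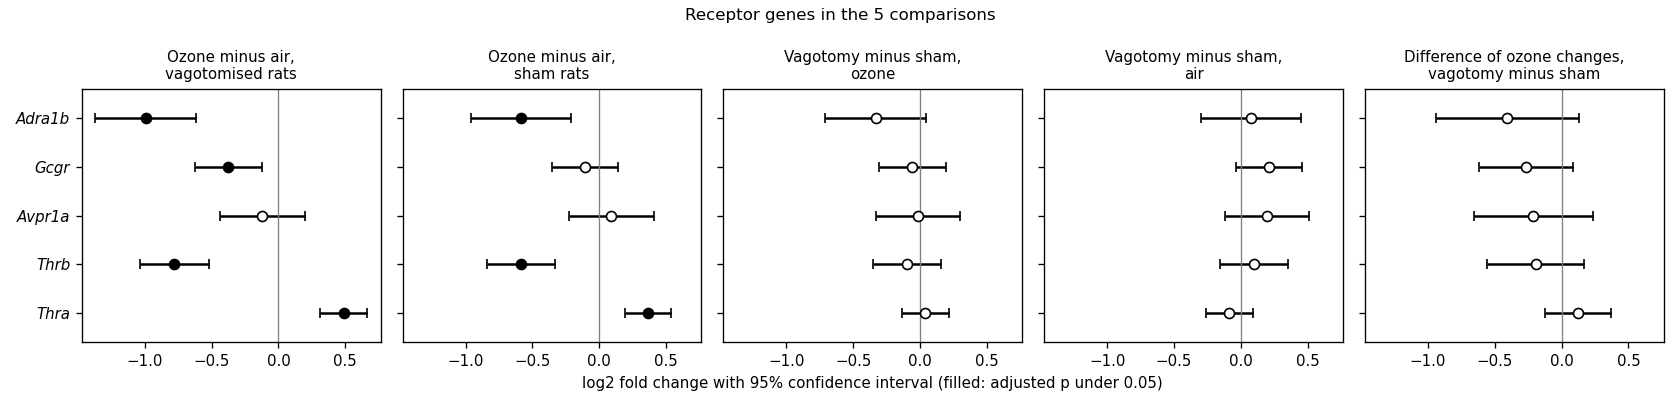
Log2 change with its 95% confidence interval (horizontal axis) for each receptor gene (rows) in the comparisons of ozone with air, of vagotomy with sham surgery and of the ozone changes between surgery groups; filled points have an adjusted p under 0.05. The filled points are those of Adra1b, Gcgr, Thrb and Thra in vagotomised rats and of Adra1b, Thrb and Thra in sham rats, all in ozone against air.

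Adra1b, the alpha-1B adrenergic receptor and the Gq-coupled catecholamine receptor of rat hepatocytes, had 499.7, 288, 247, 326 and 359 normalised counts in vagotomised ozone libraries 1 to 5. In vagotomised air libraries it ranged from 530.2 to 976, with a median of 622. Every vagotomised ozone library was below every vagotomised air library. Of all genes tested, 11.7% had groups that did not overlap in this comparison. Adra1b averaged 344 ± 96.6 in vagotomised ozone rats and 680.5 ± 163 in vagotomised air rats (SD, n = 5 and 6). It fell by 49.8%, a log2 change of -0.99 ± 0.18 (SE, adjusted p = 0.000409, limma).

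In sham rats Adra1b ranged from 343 to 626 after ozone, with a median of 391, against 764, 743, 563, 503 and 629 in sham air libraries 1 to 5. The groups overlapped through sham ozone library 3, which held the 626. It averaged 430.1 ± 106 in sham ozone rats and 640.2 ± 113 in sham air rats (SD, n = 6 and 5). Adra1b fell by 33.4% in sham rats, a log2 change of -0.59 ± 0.18 (SE, adjusted p = 0.0183, limma). This call rests on sham air library 2: without it the change was -0.53 with an adjusted p of 0.0526. Without the 4 libraries low in 5.8S ribosomal RNA, Adra1b changed by -0.95 ± 0.14 in vagotomised rats and by -0.70 ± 0.12 in sham rats (SE, adjusted p = 5.89e-05 and 0.000190, limma).

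The promoter window of Adra1b is shown because its transcript fell in both surgery groups. It comes from RefSeq on build GRCr8, chr10:28814298-28814597, minus strand, and runs from 250 bases before to 50 bases after 1 listed start of the gene, 5′ to 3′. The files use another build, rn6, and none of these coordinates should be read on it. Capitals mark the only GC box (GGGCGG or its reverse complement).
Adra1b promoter: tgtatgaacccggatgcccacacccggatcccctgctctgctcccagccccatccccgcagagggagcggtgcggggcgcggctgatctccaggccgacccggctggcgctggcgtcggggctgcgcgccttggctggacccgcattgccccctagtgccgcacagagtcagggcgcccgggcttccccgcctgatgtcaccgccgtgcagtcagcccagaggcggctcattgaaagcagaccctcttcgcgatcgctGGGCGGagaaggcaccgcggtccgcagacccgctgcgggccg
The window has a GC content of 72%. A GC box in these letters occurs in 33.1% of the 33469 rat promoter windows of the same length, and a match is a description of the sequence, not evidence of binding.

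Avpr1a, the V1a vasopressin receptor that shares Gq and calcium signalling with Adra1b, did not pass the threshold after ozone in either surgery group. It had 2756, 2468, 2069, 2071 and 2218 normalised counts in vagotomised ozone libraries 1 to 5, and ranged from 1891 to 2973 in vagotomised air libraries, with a median of 2763. It ranged from 1902 to 3128 in sham ozone libraries, with a median of 2292, against 1701, 2007, 2059, 2869 and 2478 in sham air libraries 1 to 5. The groups overlapped widely in both comparisons. The log2 change was -0.12 ± 0.15 in vagotomised rats (SE, adjusted p = 0.636, limma; 95% interval -0.44 to 0.19) and 0.09 ± 0.15 in sham rats (adjusted p = 0.697, interval -0.22 to 0.41). Without the 4 libraries low in 5.8S ribosomal RNA these were -0.23 ± 0.16 and 0.15 ± 0.14 (SE, adjusted p = 0.333 and 0.438, limma). Over all libraries the 95% interval of Adra1b was -1.37 to -0.62 in vagotomised rats, which does not overlap that of Avpr1a. In sham rats it was -0.96 to -0.21, which overlaps that of Avpr1a at its edge. The changes of the 2 genes were not tested against each other.

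Gcgr, the glucagon receptor, had 744, 586, 572, 557 and 562 normalised counts in vagotomised ozone libraries 1 to 5. In vagotomised air libraries it ranged from 693 to 961, with a median of 742. Vagotomised ozone library 1 alone reached into the range of the air libraries, and the other 4 lay below it. Gcgr averaged 604 ± 79.0 in vagotomised ozone rats and 784 ± 101 in vagotomised air rats (SD, n = 5 and 6). It fell by 22.9%, a log2 change of -0.38 ± 0.12 (SE, adjusted p = 0.0286, limma), and by -0.35 ± 0.10 without the 4 libraries low in 5.8S ribosomal RNA (adjusted p = 0.0149). The call was lost when any 1 of 6 libraries was left out, vagotomised ozone libraries 2, 3, 4 or 5 or vagotomised air libraries 1 or 5, with log2 changes of -0.37 to -0.32 and adjusted p-values of 0.0586 to 0.0709.

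In sham rats Gcgr ranged from 515 to 834 after ozone, with a median of 606, against 832, 634, 627, 622 and 670.2 in sham air libraries 1 to 5. These groups overlapped across most of their range. The log2 change was -0.11 ± 0.12 (SE, adjusted p = 0.541, limma), with a 95% interval of -0.36 to 0.14. Without the 4 libraries low in 5.8S ribosomal RNA it was -0.19 ± 0.09 (SE, adjusted p = 0.0989, limma). The difference between the changes in vagotomised and sham rats was -0.27 ± 0.17 over all libraries and -0.16 ± 0.13 without those 4, and passed the test in neither (SE, adjusted p = 0.675 and 0.668, limma).

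Adra1b and Gcgr shared their highest libraries, while the library lowest in each was the same only in sham air rats. In each of the 4 groups the library highest in Adra1b was also highest in Gcgr. In 3 of the 4 groups that library was one of the 4 low in 5.8S ribosomal RNA, and the fourth such library ranked second for both genes in vagotomised air rats. Those 4 libraries held 1.29 to 1.66 times the mean Adra1b count of the other libraries of their groups, and 1.17 to 1.41 times the mean Gcgr count. For Avpr1a, Thrb and Thra the same ratios ran from 0.724 to 1.25, 0.626 to 1.06 and 0.870 to 0.917. Whether RNA quality, tissue sampling or the animals themselves set this shared spread was not tested.

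**Figure D3:**
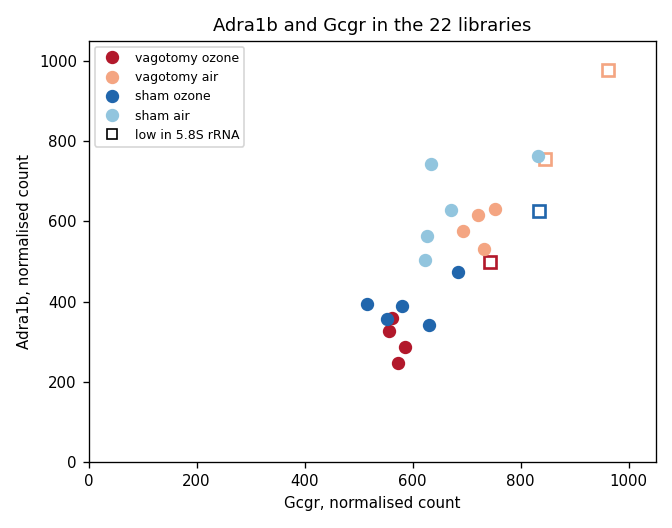
Normalised read count of Adra1b (vertical axis) against that of Gcgr (horizontal axis) in each of the 22 libraries, coloured by group. Open squares are the 4 libraries low in 5.8S ribosomal RNA. The vagotomised ozone libraries lie between 247 and 499.7 for Adra1b, and in each group the library farthest to the right is also the highest.

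Thrb, the thyroid hormone receptor beta that carries most of the hormone response of hepatocytes, had 929, 882, 797, 825 and 997 normalised counts in vagotomised ozone libraries 1 to 5. In vagotomised air libraries it ranged from 1415 to 1655, with a median of 1516. The groups did not overlap, and a wide gap separated them. Thrb averaged 886 ± 80.1 in vagotomised ozone rats and 1518 ± 92.1 in vagotomised air rats (SD, n = 5 and 6). It fell by 41.7%, a log2 change of -0.78 ± 0.12 (SE, adjusted p = 9.41e-05, limma).

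In sham rats Thrb ranged from 642 to 1175 after ozone, with a median of 1004, against 1109, 1507, 1528, 1533 and 1454 in sham air libraries 1 to 5. The overlap came from sham air library 1, the lowest of its group, which lay below the 2 highest sham ozone libraries. Thrb averaged 962 ± 195 in sham ozone rats and 1426 ± 179.9 in sham air rats (SD, n = 6 and 5). It fell by 33.3%, a log2 change of -0.58 ± 0.12 (SE, adjusted p = 0.00109, limma). Without the 4 libraries low in 5.8S ribosomal RNA, the change was -0.82 ± 0.11 in vagotomised rats and -0.47 ± 0.10 in sham rats (SE, adjusted p = 4.31e-05 and 0.00125, limma).

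Thra, the thyroid hormone receptor alpha gene, which makes a hormone-binding receptor and a splice variant that does not bind hormone, moved the other way. It had 343, 400.3, 358, 389 and 362 normalised counts in vagotomised ozone libraries 1 to 5, and ranged from 239 to 324 in vagotomised air libraries, with a median of 259. It ranged from 331 to 393 in sham ozone libraries, with a median of 363, against 284, 281, 279, 263 and 293 in sham air libraries 1 to 5. All ozone libraries lay above all air libraries within each surgery group. In sham rats, 15.4% of all genes tested had groups that did not overlap, and Thra was the 1 member among them.

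Thra averaged 371 ± 23.4 in vagotomised ozone rats and 265 ± 31.3 in vagotomised air rats (SD, n = 5 and 6). In sham rats it averaged 361 ± 21.4 after ozone and 279.8 ± 10.6 after air (SD, n = 6 and 5). Thra rose by 40.3% in vagotomised rats, a log2 change of 0.49 ± 0.08 (SE, adjusted p = 0.000224, limma). It rose by 28.7% in sham rats, a log2 change of 0.36 ± 0.08 (SE, adjusted p = 0.00238, limma). Gene-level counts do not separate its splice variants. In the GRCr8 annotation Thra overlaps Nr1d1 and Med24, and the counting is not stated to use strand, so reads from the overlaps cannot be assigned with certainty. Neither neighbour was called: Nr1d1 changed by -0.09 ± 0.48 in vagotomised and 0.60 ± 0.48 in sham rats, and Med24 by -0.19 ± 0.09 and -0.10 ± 0.09 (SE, adjusted p = 0.921, 0.371, 0.172 and 0.446, limma).

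The ratio of Thrb to Thra reads within a library does not depend on how libraries are scaled to each other. It was 2.39 in vagotomised ozone rats, with a range of 2.12 to 2.75, against 5.75 in vagotomised air rats, with a range of 5.11 to 6.36 (geometric means, n = 5 and 6). In sham rats it was 2.62 after ozone, ranging from 1.94 to 3.41, against 5.06 after air, ranging from 3.91 to 5.82 (n = 6 and 5). No ozone library reached the ratio of any air library in either surgery group, the 4 libraries low in 5.8S ribosomal RNA included. Such separation was not particular to this pair, and its share over all gene pairs was not computed. Adra1b to Gcgr reads ran from 0.432 to 0.672 after ozone and 0.725 to 1.02 after air in vagotomised rats. In sham rats they ran from 0.543 to 0.763 and 0.808 to 1.17. The ratio of Adra1b to Avpr1a overlapped in sham rats, at 0.126 to 0.329 and 0.175 to 0.449. The ratio of Thrb to Thra compares reads, not transcript numbers, since the transcripts of the 2 genes differ in length.

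**Figure D4:**
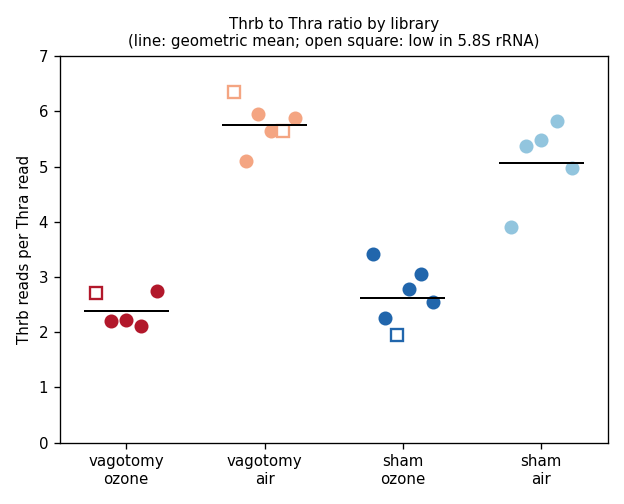
Thrb reads per Thra read (vertical axis, starting at 0) in each of the 22 libraries, by group, with the geometric mean as a line; open squares are the 4 libraries low in 5.8S ribosomal RNA. The ozone libraries lie between 1.94 and 3.41 and the air libraries between 3.91 and 6.36.

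The promoter windows of the 2 thyroid hormone receptor genes are shown because their transcripts moved in opposite directions. Both are from RefSeq on build GRCr8, 5′ to 3′, from 250 bases before to 50 bases after 1 listed start: chr15:10461397-10461696 on the minus strand for Thrb and chr10:84197891-84198190 on the plus strand for Thra. Capitals mark GC boxes (GGGCGG or CCGCCC on the strand shown) and, in Thrb, the core of a cAMP response element (TGACG).
Thrb promoter: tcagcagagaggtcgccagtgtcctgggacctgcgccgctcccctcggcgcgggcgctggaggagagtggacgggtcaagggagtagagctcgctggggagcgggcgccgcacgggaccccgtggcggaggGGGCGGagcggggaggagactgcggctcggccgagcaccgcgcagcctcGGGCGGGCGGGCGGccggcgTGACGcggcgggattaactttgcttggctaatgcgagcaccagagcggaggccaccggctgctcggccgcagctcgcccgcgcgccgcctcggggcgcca
Thra promoter: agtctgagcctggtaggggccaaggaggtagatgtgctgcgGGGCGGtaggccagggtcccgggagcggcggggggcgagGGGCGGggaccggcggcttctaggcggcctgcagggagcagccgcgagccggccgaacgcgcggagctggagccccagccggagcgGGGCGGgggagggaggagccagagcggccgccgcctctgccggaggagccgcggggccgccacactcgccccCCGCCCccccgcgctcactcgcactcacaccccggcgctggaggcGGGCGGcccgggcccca
Thrb has a GC content of 76% in this window, with 4 GC boxes, of which 3 overlap each other from position -70 to -57 counted from the start, and the TGACG core at -50 to -46. Thra has a GC content of 79.7%, with 5 GC boxes and no TGACG. The table lists a second start for Thra, whose window, not printed here, has a GC content of 46.3% and none of the motifs searched. Other motifs searched on both strands in these windows and in that of Adra1b were the whole cAMP response element TGACGTCA, which contains that core, the nuclear receptor hexamer AGGTCA, the glucocorticoid receptor hexamer AGAACA and the E-box CACGTG, and none was found in the 3 printed windows. They occur in 1.83%, 16.2%, 20.7% and 6.42% of the 33469 windows, and TGACG occurs in 21.2%. No match says only that these letters are absent from these windows.

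Vagotomy itself moved no member past the threshold. In air, 0 of 5 members were called, against 0% of all genes tested, and in ozone 0 of 5, against 1.34% (0.805% higher and 0.531% lower). Over all 22 libraries, the count was also 0 in both with edgeR and with DESeq2, and at an unadjusted p under 0.05. Over all genes in air the count was 0 by limma, edgeR and DESeq2, with 387 genes at an unadjusted p under 0.05. In ozone, vagotomised minus sham, the log2 difference was -0.33 for Adra1b (95% interval -0.71 to 0.05), -0.06 for Gcgr (-0.31 to 0.19), -0.02 for Avpr1a (-0.33 to 0.30), -0.10 for Thrb (-0.35 to 0.16) and 0.04 for Thra (-0.14 to 0.21), with adjusted p-values of 0.410 to 0.975 (limma). After removal of the libraries low in 5.8S ribosomal RNA, the largest difference in ozone was that of Adra1b, at -0.36 ± 0.13 (SE, adjusted p = 0.131, limma). Thrb was then at -0.23 ± 0.11, Avpr1a at -0.14 ± 0.15, Gcgr at -0.05 ± 0.09 and Thra at 0.04 ± 0.09 (SE, adjusted p = 0.270, 0.666, 0.818 and 0.841, limma). In air, over all 22 libraries, the log2 difference was 0.08 for Adra1b (-0.30 to 0.45), 0.21 for Gcgr (-0.04 to 0.46), 0.19 for Avpr1a (-0.12 to 0.51), 0.10 for Thrb (-0.16 to 0.35) and -0.09 for Thra (-0.26 to 0.09), all with an adjusted p of 0.9995.

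The ozone change was also not shown to depend on surgery. The difference of the ozone changes, vagotomised minus sham, was -0.41 ± 0.26 for Adra1b, -0.21 ± 0.22 for Avpr1a, -0.19 ± 0.17 for Thrb and 0.12 ± 0.12 for Thra, beside the value of Gcgr given above (SE, adjusted p = 0.672, 0.825, 0.793 and 0.811, limma). Leaving out the libraries low in 5.8S ribosomal RNA gave -0.25 ± 0.19, -0.38 ± 0.21, -0.35 ± 0.15 and 0.08 ± 0.12 (SE, adjusted p = 0.606, 0.487, 0.377 and 0.848, limma). Over all 22 libraries, 0 of 5 members were called, against 0% of all genes tested, and 0 members had an unadjusted p under 0.05 or a call by edgeR or DESeq2. Over all genes, limma and edgeR called 0 and DESeq2 20, and 1147 had an unadjusted p under 0.05. All 4 members called in vagotomised rats had a larger estimate there than in sham rats, without a test of that difference being passed. Picking members by their call in vagotomised rats itself favours a larger estimate there, so no conclusion is drawn from this.

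The adrenergic receptor Adra2b, the angiotensin receptor Agtr1a and Vipr1, a receptor for vasoactive intestinal peptide, were not called in any comparison over all 22 libraries. In vagotomised rats their log2 changes after ozone were -0.05, -0.16 and 0.26, with adjusted p-values of 0.865, 0.465 and 0.377 (limma). In sham rats they were -0.34, -0.34 and 0.30, with adjusted p-values of 0.129, 0.0787 and 0.259. With the libraries low in 5.8S ribosomal RNA left out, Agtr1a was called lower in both surgery groups, at -0.38 ± 0.10 in vagotomised rats and -0.24 ± 0.09 in sham rats (SE, adjusted p = 0.0107 and 0.0486, limma), while Adra2b and Vipr1 were still not called. Adra2a, Adrb1 and Glp2r were under the minimum mean, with 1.64, 6.56 and 1.68 normalised counts over all libraries.

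Downstream of Adra1b and Avpr1a, 1 calcium release channel, Itpr1, rose while Plcb3, Phkb and Atp2b2 fell in both surgery groups. Itpr1, an inositol trisphosphate receptor channel, averaged 1507 ± 171 normalised counts in vagotomised ozone rats and 603 ± 92.2 in vagotomised air rats (SD, n = 5 and 6). It rose by 1.33 ± 0.13 on the log2 scale in vagotomised rats and by 1.37 ± 0.13 in sham rats (SE, adjusted p = 3.3e-07 and 1.18e-07, limma). Its paralogs Itpr2 and Itpr3 were not called, with changes of -0.12 and 0.04 in vagotomised rats and 0.05 and 0.53 in sham rats (adjusted p = 0.695, 0.917, 0.864 and 0.0773). Plcb3, a phospholipase C that Gq activates, fell by 0.68 and 0.46 on the log2 scale, Phkb, a subunit of the phosphorylase kinase that starts glycogen breakdown, by 0.53 and 0.38, and Atp2b2, a calcium pump of the plasma membrane, by 1.37 and 0.87 (vagotomised and sham rats, adjusted p at most 0.0251). The paralogs of Plcb3 were not called and did not share 1 direction. Plcb1 was at 0.19 and 0.53, Plcb4 at 0.24 and 0.31 and Plcb2 at -0.30 and -0.24 in vagotomised and sham rats. Their adjusted p-values were 0.567 and 0.0594, 0.471 and 0.294, and 0.449 and 0.516 (limma). Of 27 Gq and calcium genes tested, 1 was higher and 4 lower in vagotomised rats and 2 higher and 8 lower in sham rats, with median log2 changes of -0.13 and -0.12, against -0.01 and 0.01 over all genes. The share called either way was 18.5% in vagotomised and 37.0% in sham rats, against 21.1% and 28.4% of all genes tested. In sham rats the lower count was 4 or 5 without sham ozone library 1, 4 or 5 or sham air library 2 or 3, and the higher count was 4 without sham ozone library 3.

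Downstream of Gcgr, the called genes of Gs and cAMP signalling included rises and falls. Crtc2, a CREB coactivator that glucagon signalling brings into the nucleus, rose by 0.32 ± 0.09 in vagotomised and 0.59 ± 0.09 in sham rats on the log2 scale (SE, adjusted p = 0.00958 and 1.93e-05, limma). Pde3b, a cAMP phosphodiesterase activated by insulin, rose by 0.51 and 0.63, while the phosphodiesterase Pde7a fell by 0.88 and 0.90 and the adenylyl cyclase Adcy9 by 0.67 and 0.64 (adjusted p at most 0.00443). Of 30 genes tested, 3 were higher and 2 lower in vagotomised rats and 5 higher and 6 lower in sham rats, with medians of -0.14 and -0.03. These are 16.7% and 36.7% of the list, beside 21.1% and 28.4% of all genes. Without the 4 libraries low in 5.8S ribosomal RNA the higher counts were 5 and 8, and the lower counts stayed at 2 and 6. Calls over all genes rose too in that fit, to 22.6% in vagotomised and 35.8% in sham rats.

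Among genes that cAMP and CREB are known to control, Ppargc1a, a coactivator of glucose production, averaged 368 ± 191.8 in vagotomised ozone rats and 119.96 ± 37.6 in vagotomised air rats, and 632 ± 146 in sham ozone rats and 97.0 ± 28.4 in sham air rats (SD). It rose by 1.48 ± 0.32 and 2.71 ± 0.32 on the log2 scale in vagotomised and sham rats (SE, adjusted p = 0.00185 and 1.6e-06, limma). The glucose-6-phosphatase gene G6pc rose by 1.05 in sham rats (adjusted p = 0.00242) and had a change of 0.32 in vagotomised rats (adjusted p = 0.402). Pck1, the gluconeogenic PEP carboxykinase, fell by 0.66 in vagotomised rats (adjusted p = 0.0138) and had a change of 0.12 in sham rats (adjusted p = 0.676). Neither difference between surgery groups passed the test. Of 17 genes tested, 2 were higher and 4 lower in vagotomised rats and 6 higher and 2 lower in sham rats, with medians of -0.27 and 0.45. Calls covered 35.3% and 47.1% of the list, beside 21.1% and 28.4% of all genes. The sham count of lower genes was 1 without sham ozone library 3 or 6 or sham air library 2 or 5.

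Of 17 genes tested that switch receptors off, 0 were higher and 1 lower in vagotomised rats, and 0 higher and 3 lower in sham rats, with a median of -0.06 in each. The lower genes were 5.88% and 17.6% of the list, beside 9.63% and 13.8% of all genes tested. The lower call in vagotomised rats was lost without vagotomised ozone library 2 or vagotomised air library 1. Arrb2, the beta-arrestin that uncouples and internalises activated receptors, fell by 0.50 ± 0.12 on the log2 scale in sham rats and had a change of -0.17 ± 0.12 in vagotomised rats (SE, adjusted p = 0.00328 and 0.370, limma). Over all 22 libraries, Rgs12, a regulator of G protein signalling, was the 1 gene of the 7 pathway lists called between vagotomised and sham rats in ozone. It was at 0.84 ± 0.21 (SE, adjusted p = 0.0490, limma). This call was lost in 15 of 27 alternative analyses, among them every one that left out a vagotomised ozone library and those without sham ozone library 1, 2 or 5. Without the 4 libraries low in 5.8S ribosomal RNA, 0 genes of its list were called in this comparison. There, 1 of 17 cAMP and CREB response genes and 2 of 23 thyroid hormone response genes were called, all lower, beside 2.19% of all genes called either way.

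Upstream of Thrb and Thra, some genes of thyroid hormone transport and conversion were called in each direction. Slc16a10, a carrier of aromatic amino acids and thyroid hormone, averaged 1153 ± 170.4 normalised counts in vagotomised ozone rats and 435 ± 178 in vagotomised air rats (SD, n = 5 and 6). It rose by 1.48 ± 0.23 on the log2 scale in vagotomised rats and by 1.90 ± 0.23 in sham rats (SE, adjusted p = 6.76e-05 and 1.98e-06, limma). Sult1b1, a sulfotransferase that acts on thyroid hormones, rose by 0.67 and 0.68 (adjusted p = 5.55e-05 and 2.7e-05). Dio1, the deiodinase by which liver converts thyroxine to active hormone, fell by 0.43 ± 0.10 in sham rats and had a change of -0.10 ± 0.10 in vagotomised rats (SE, adjusted p = 0.00302 and 0.524, limma). Dio3, the deiodinase that inactivates thyroid hormone, rose by 2.21 and 2.27 at low counts, with means of 20.3 and 30.5 in vagotomised and sham ozone rats against 4.69 and 4.76 in the corresponding air rats (adjusted p = 0.00598 and 0.00347). Of 15 genes tested, 3 were higher and 2 lower in vagotomised rats and 3 higher and 3 lower in sham rats, with medians of -0.19 and -0.10. Calls covered 33.3% and 40% of this list, beside 21.1% and 28.4% of all genes. The sham count of lower genes was 1 without sham ozone library 6 or sham air library 2 or 4.

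Of 20 partners of the thyroid hormone receptors, 0 were higher and 2 lower in vagotomised rats and 2 higher and 1 lower in sham rats, with medians of -0.13 and 0.06. These are 10% and 15% of the list, beside 21.1% and 28.4% of all genes. Ncor1, the corepressor held by receptors without hormone, fell by 0.52 ± 0.13 in vagotomised rats on the log2 scale (SE, adjusted p = 0.00598, limma). In sham rats its change of -0.36 ± 0.13 (adjusted p = 0.0398) lost its call in 10 of 27 alternative analyses, and the list's lower count there ran from 0 to 3 when single libraries were left out. Those that moved it were sham ozone libraries 1, 2, 3 and 6 and each sham air library. In vagotomised rats the lower count was 1 without vagotomised ozone library 3. Rxra, the retinoid X receptor alpha that pairs with Thrb and Thra, rose by 0.57 in sham rats (adjusted p = 0.0100) and had a change of 0.10 in vagotomised rats (adjusted p = 0.717).

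Called genes known to respond to thyroid hormone included rises and falls. Por, the cytochrome P450 reductase, rose by 1.76 and 2.54 on the log2 scale in vagotomised and sham rats, and Idh3a, an enzyme of the citric acid cycle, by 1.00 and 0.85 (adjusted p at most 0.000180). Klf9, a transcription factor with a thyroid hormone response element, rose by 0.77 in sham rats (adjusted p = 0.000925) and had a change of 0.10 in vagotomised rats (adjusted p = 0.729). Nrp1, a receptor for guidance and vascular factors, fell by 0.67 and 0.85 (adjusted p = 0.00443 and 0.000374). Thrsp, the classical thyroid-responsive gene of lipogenesis, had changes of -0.19 ± 0.30 and -0.21 ± 0.30 (SE, adjusted p = 0.720 and 0.652, limma). Of 23 tested, 3 were higher and 2 lower in vagotomised rats and 6 higher and 5 lower in sham rats, with medians of -0.10 and -0.17. Calls covered 21.7% and 47.8%, beside 21.1% and 28.4% of all genes. Without vagotomised ozone library 1 the lower count in vagotomised rats was 4. Many of these genes are also under other controls.

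**Figure D5:**
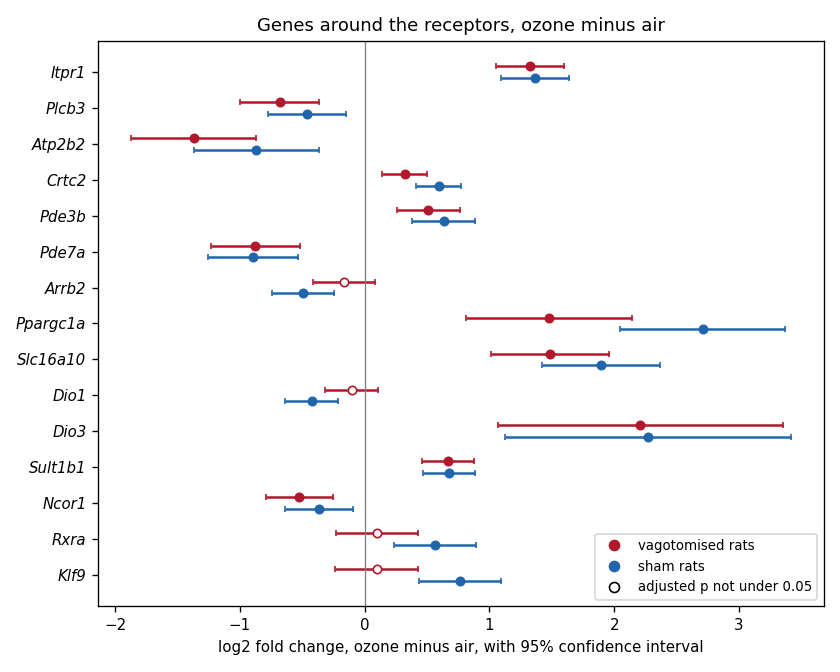
Log2 change after ozone with its 95% confidence interval (horizontal axis) for genes of receptor signalling, cAMP response, thyroid hormone handling and thyroid receptor partners (rows), in vagotomised and in sham rats; open points have an adjusted p that is not under 0.05. Itpr1 lies at 1.33 and 1.37 and Pde7a at -0.88 and -0.90 in vagotomised and sham rats, and the open points are the vagotomised values of Arrb2, Dio1, Rxra and Klf9.

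The zones of the liver lobule differ in hormone responses, so zone markers, and those of other liver cells, are given beside the receptor changes. After ozone, 11.4% of all genes tested were called higher and 9.63% lower in vagotomised rats, and 14.6% and 13.8% in sham rats. Of 10 periportal hepatocyte markers, 6 were higher and 1 lower after ozone in vagotomised rats and 8 higher and 0 lower in sham rats. Their summed normalised counts ranged from 252656 to 334148 in vagotomised ozone rats against 214905 to 317501 in vagotomised air rats, and from 257747 to 414306 in sham ozone rats against 184375 to 279069 in sham air rats. Of 9 pericentral markers tested, 0 were called in vagotomised rats and 1, higher, in sham rats. Of 10 general hepatocyte markers, 1 was higher and 1 lower in vagotomised rats and 4 were higher in sham rats, among them Hnf4a at 0.69 ± 0.11 (SE, adjusted p = 6.56e-05, limma). Hnf4a was also lower in vagotomised than in sham rats after ozone, at -0.55 ± 0.11 (SE, adjusted p = 0.0199, limma). Stellate cell markers gave 0 calls of 9 in vagotomised rats and 1 higher (Dcn, 1.27) and 2 lower (Pdgfrb, -0.87, and Col3a1, -0.80) in sham rats. Of 9 endothelial markers, 1 was higher in vagotomised rats (Lyve1, 0.51) and 1 lower in sham rats (Tek, -0.38), and of 7 smooth muscle markers 0 were called in vagotomised rats and 1 was higher (Mylk, 0.39) and 1 lower (Smtn, -0.49) in sham rats. Of 2 neutrophil markers tested, Csf3r was lower in both, at -0.90 in vagotomised and -0.94 in sham rats. Of 10 Kupffer cell markers, 0 were called in vagotomised rats and 1, Cd68, was lower in sham rats, at -0.64. Over all 22 libraries, no calls were made after ozone among 5 cholangiocyte, 3 nerve and glia, 3 lymphocyte and 3 erythroid markers. Without the 4 libraries low in 5.8S ribosomal RNA, vagotomised rats had 3 stellate markers lower and no neutrophil marker called. Their periportal markers were 5 higher and 1 lower, and their hepatocyte markers 0 higher and 1 lower. In sham rats 1 nerve and glia marker was higher, and 2 Kupffer cell and 2 endothelial markers were lower. The other ozone counts stayed the same. Of all genes, 22.6% were then called in vagotomised and 35.8% in sham rats. The part of these markers in the receptor changes was not tested.

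The genes whose levels ran most like each receptor over the 22 libraries were found by Pearson's r of log2(normalised count + 1) among 9647 genes, as a description only, since all libraries share the group differences and their RNA quality. For Adra1b they were Carhsp1 (r = 0.931, and 0.853 after subtracting group means), Akt2 (0.922 and 0.803) and Oaf (0.918 and 0.795). For Gcgr they were Ppp5c (0.914 and 0.896), Fdxr (0.903 and 0.849) and Tapbpl (0.888 and 0.872). Avpr1a ran most like Chd9 (0.720 and 0.767), Rhobtb1 (0.700 and 0.786) and Zbtb16 (0.692 and 0.754). For Gcgr and Avpr1a the likeness therefore lay mostly between libraries of the same group. Thrb ran most like Lrp2 (0.943 and 0.807), Sox5 (0.940 and 0.806) and Trpm6 (0.935 and 0.757), and Thra most like Lzic (0.952 and 0.733), Zkscan5 (0.927 and 0.630) and Ndufaf4 (0.911 and 0.422). Thra's likeness to Ndufaf4 thus shrank the most of these when group means were subtracted.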

How the data were processed

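Liver RNA of 22 rats in 4 groups was analysed from 1 deposited table of normalised counts per gene and library. The signal in this table is, per the submitters' processing notes, the output of STAR, Partek, DESeq and DESeq2 on build rn6, without versions; which tool did which step is not given in the sources used here. Each deposited signal value was a whole multiple of 1 step per library (tolerance 0.001), so the read counts could be recovered. All columns were used.

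The values were analysed as log2(normalised count + 1), with a minimum mean of 10 (83.0% of the genes). limma 3.58.1 in R 4.3.3 fitted 4 group means over all 22 libraries with an intensity trend, two-sided, with Benjamini-Hochberg adjustment over all genes tested. The 5 comparisons were ozone against air in each surgery group, vagotomised against sham in each exposure, and the difference of the ozone changes. Alternatives were edgeR 4.0.16 and DESeq2 1.42.0 on the recovered reads, other scalings, filters, pseudocounts and fits, and leaving out libraries. The procedure was tested on simulated data. Within-group library pairs all differed beyond counting noise (50 pairs, chi-square per degree of freedom at least 9.75). The p-values measure the spread between samples that the labels give as separate.

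The members and the gene lists were chosen with earlier results of these data known. Named genes were all members, up to 4 called genes with the smallest p per list and comparison, and the 3 genes most like each member; where such a gene is named, its value in the other surgery group is given too. Agtr1a, Vipr1 and other receptors under the threshold, Itpr2, Itpr3, Plcb1, Plcb2, Plcb4, Thrsp, single marker genes and the 2 neighbours of Thra were named outside this rule, after their values were seen. Symbols were matched to RefSeq on GRCr8 for promoters. Some genes that the naming rule picks are not reported here; the list counts include them.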

Additional observations from a re-analysis of the deposited data

Results flagged for a closer look

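In 4 of 20 groups of member values, a library lay far from the rest of its group by Dixon's criterion, and chance alone marks about 1 group in 20. Gcgr was highest in vagotomised ozone library 1, at 744 normalised counts. Gcgr was also highest in sham air library 1, at 832, and the same library was lowest in Thrb, at 1109. Thra was highest in vagotomised air library 2, at 324. Vagotomised ozone library 1 is one of the 4 low in 5.8S ribosomal RNA; the other 2 libraries are not. The cause was not tested.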

How the results depend on the processing

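Thrb and Thra in both surgery groups and Adra1b in vagotomised rats kept their direction and their call after ozone in all 27 alternative analyses of each. Gcgr in vagotomised rats lost its call in 6 and Adra1b in sham rats in 1, each by leaving out 1 library. Every change of direction was in a comparison without a call. With equal column totals, which shifted the median of all genes by -0.10 in sham ozone against air and by 0.10 in vagotomised against sham ozone rats, Avpr1a was at -0.013 in sham ozone against air, and vagotomised against sham in ozone Gcgr was at 0.044, Avpr1a at 0.086 and Thrb at 0.0053. In that last comparison Avpr1a was at 0.012 with equal upper quartiles, 0.042 with quantile normalisation and 0.019 with the replicate block. Leaving out 1 library at a time gave -1.49e-06 to 0.19 for Avpr1a in sham ozone against air. For vagotomised against sham it gave -0.035 to 0.14 for Adra1b in air, and in ozone -0.13 to 0.026 for Gcgr and -0.081 to 0.069 for Avpr1a. Without the libraries low in 5.8S ribosomal RNA, Adra1b was at -0.11 in vagotomised against sham air rats. The cause was not tested.

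Over 20 pairs of same-numbered libraries the correlation of deviations from group means was -0.32 to 0.61, with 6 over 0.1. Differently numbered pairs were not compared, so these values cannot decide whether replicate numbers pair the samples. With the replicate block the members called stayed 4 in vagotomised and 3 in sham rats. Over all genes, vagotomised against sham in ozone gave 166 calls, against 14 with only the groups compared, 86 with quantile normalisation, 270 with array weights, 272 without the libraries low in 5.8S ribosomal RNA, and 2.95% of the genes, against 1.34%, with DESeq2; the difference of the ozone changes gave 0, against 13 with array weights and 20 with DESeq2. Each member had at least 220 reads in every library. Days of exposure could not be modelled.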
